A study of Mus musculus with 12 samples.

Results

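The genes of oxidative phosphorylation were examined in cultured mouse myeloid-derived suppressor cells (MDSCs) at the mRNA level. They were chosen by symbol, as the subunit genes of complexes I to V (Nduf, Sdh, Uqcr, Cyc1, Cox and Atp5 names) and the genes of the mitochondrial genome (mt- names). The rule itself used no expression value, but it was chosen with earlier results of these data known. Of 35303 symbols in the count table, 119 met this rule. They comprised 13 mRNA genes of the mitochondrial genome, 88 protein-coding nuclear genes, and 18 pseudogenes or gene copies. The table held no row for a mitochondrial ribosomal or transfer RNA.

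Bulk RNA-seq of 12 libraries compared 3 groups with 4 libraries each. All cells came from wild-type female C57BL/6 mice aged 6 to 10 weeks, and were grown out of bone marrow in the presence of GM-CSF and IL-6 and isolated as CD11b+Gr1+ cells. All groups then spent 24 hours in culture with 40 ng/ml of IL-6. The groups were unmodified cells (MDSC), cells conjugated with blank poly(lactic-co-glycolic acid) nanoparticles (MDSC-NP-Blk), and cells conjugated with nanoparticles loaded with rapamycin, an inhibitor of the growth kinase mTOR (CITED). CITED and MDSC-NP-Blk thus differed in the rapamycin load, whereas MDSC differed from both in the whole conjugation procedure. Whether the unmodified cells also carried the azido sugar used for conjugation is not stated in the sources used here. Neither is it stated whether libraries with the same number came from the same mice, and p-values measure the spread between these libraries.

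Oxidative phosphorylation passes electrons from NADH (complex I) and succinate (complex II) through complex III to oxygen at complex IV, and the ATP synthase (complex V) uses the resulting proton gradient to make ATP. Complexes I, III, IV, and V are built from subunits of both genomes, and complex II from nuclear subunits alone. The mitochondrial genome is transcribed as long precursors from its heavy and light strands, which are cut into shorter RNAs, so that most of its mRNAs share a transcript of origin. Neutrophil-like and suppressive myeloid cells are known for a strong use of glycolysis, with few mitochondria in mature neutrophils.

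The libraries held between 20604809 and 37855478 counts. Marker sums were given to check the labelled cells. The 9 myeloid markers summed to normalized counts of 651651 to 737574 for MDSC, 910870 to 958103 for MDSC-NP-Blk, and 730708 to 825386 for CITED. A tissue field in the labels names the CNS, but of the neural and glial markers Rbfox3, Snap25, Gfap, and Mog were at or under 1 count per library. Mbp, the myelin basic protein gene, which has transcripts outside the nervous system as well, had mean normalized counts of 1945, 2139, and 1902 for MDSC, MDSC-NP-Blk, and CITED, and made up nearly all of the sum of the list (1768 to 2243). The 3 B cell markers summed to 87.5 to 145 for MDSC, 71.9 to 97.2 for MDSC-NP-Blk, and 33.9 to 42.2 for CITED, and the 3 mast cell and basophil markers to 3119 to 3583, 3674 to 4210, and 2190 to 2409, respectively. The sums of 5 T cell markers lay between 26.1 and 63.4 in all groups, those of 2 NK cell markers at or under 7.52, and those of 3 erythroid markers between 21.9 and 66.4. The 3 dendritic cell markers summed to between 83.2 and 157. Sums hide single markers. By the edgeR test described below, 4 myeloid markers were higher and 3 lower in CITED against MDSC (log2 fold changes of -1.04 to 2.97). In MDSC-NP-Blk against MDSC, 8 were higher and 0 lower. Of the 9 markers, 44.4% thus rose and 33.3% fell in CITED, and 88.9% rose in MDSC-NP-Blk. The call rate over all genes tested was 22.2% each way for CITED. For MDSC-NP-Blk it was 19.9% upward and 18.6% downward. Of the dendritic cell markers, 1 was lower in CITED (-5.7, with a mean normalized count under 50) and 1 in MDSC-NP-Blk (-0.99). All 3 B cell markers fell in CITED (-2.13 to -1.44), and 1 of them in MDSC-NP-Blk, none with a mean above 50. The 2 mast cell and basophil markers tested fell in CITED (-0.63 and -0.21) but rose in MDSC-NP-Blk (0.25 and 0.33). Among erythroid markers, 1 fell in MDSC-NP-Blk. The part of these cells in the results below was not tested. In bulk RNA, fewer cells of a type and less RNA per cell cannot be told apart.

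Within MDSC-NP-Blk, libraries 1 and 4 stood apart from libraries 2 and 3. A chi-square statistic of their counts was 15.7 to 21.8 per degree of freedom across these pairs and 5.69 to 5.91 within them. The groups also differed in how counts related to transcript length. The rank correlation over 10543 genes between length and a library's expression relative to the mean was 0.22 to 0.35 in the MDSC libraries and -0.34 to -0.19 in the CITED libraries. In MDSC-NP-Blk it was -0.42, -0.05, 0.09, and -0.24 in libraries 1 to 4. Because subunit transcripts are short (medians of 1002 bases for nuclear and 784 for mitochondrial genes), each set is given below with and without a length correction. Comparisons were made with edgeR's quasi-likelihood test, with p-values adjusted over 17676 tested symbols, and a gene is said to be higher or lower where its adjusted p was below 0.05. Values by library are normalized counts, which are counts scaled to the mean library, and differences given as higher, lower or as signed values are log2 fold changes.

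Among the members, 107 passed the filter for testing (at least 2 counts over the libraries). These were the 13 mitochondrial genes, 84 of 88 nuclear genes, and 10 of 18 pseudogenes or copies. No count at all was recorded for Cox7b2, Cox8b, and Cox8c, which encode tissue-restricted forms of complex IV subunits, nor for Ndufb11b. A mean normalized count above 50 was reached by 79 nuclear genes, of which 36 belonged to complex I, 4 to complex II, 9 to complex III, 12 to complex IV, and 18 to complex V. Of the pseudogenes and copies, 1 reached it (Ndufb4c), and none was called in any comparison.

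The mitochondrial and nuclear subunit genes moved apart in both nanoparticle groups. In CITED against MDSC, 9 of 13 mitochondrial genes were lower and 0 were higher, whereas 38 of 84 nuclear genes were higher and 7 were lower. Of all genes tested in this comparison, 22.2% were higher and 22.2% lower. In MDSC-NP-Blk against MDSC, 8 mitochondrial genes were lower and 1 was higher, and 34 nuclear genes were higher and 11 lower, beside 19.9% higher and 18.6% lower of all genes tested. Both comparisons use the same MDSC libraries. In CITED against MDSC-NP-Blk, 3 mitochondrial genes were lower and 0 higher, and 8 nuclear genes were higher and 5 lower, beside 10.5% higher and 11.4% lower of all genes tested. In both comparisons of CITED, DESeq2 also called 0 mitochondrial genes higher, and 0 were higher in edgeR at an unadjusted p below 0.05.

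The changes were small. The median log2 fold change of the 13 mitochondrial genes was -0.35 for CITED against MDSC and -0.19 for MDSC-NP-Blk against MDSC, and -0.06 between CITED and MDSC-NP-Blk. For the 84 nuclear genes it was 0.15, 0.12, and 0.04, respectively, and for all genes tested -0.05, -0.03, and 0.00. Among genes with a mean above 50, 48.1% of 79 nuclear members were higher and 7.59% lower in CITED against MDSC, where 35.6% and 32.3% of all such genes were. In MDSC-NP-Blk against MDSC these shares were 43.0% and 13.9% of the members, beside 32.1% and 28.2% of all genes. Between CITED and MDSC-NP-Blk they were 10.1% and 6.33%, beside 16.9% and 18.0%. A log2 fold change of 1 or more in size was reached by 2 nuclear members in CITED (Cox7a2l, higher, and Cox6b2, lower) and by 1 in MDSC-NP-Blk (Cox7a2l), and by 0 between CITED and MDSC-NP-Blk, beside 9.99%, 4.74%, and 2.65% of all genes.

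**Figure D1:**
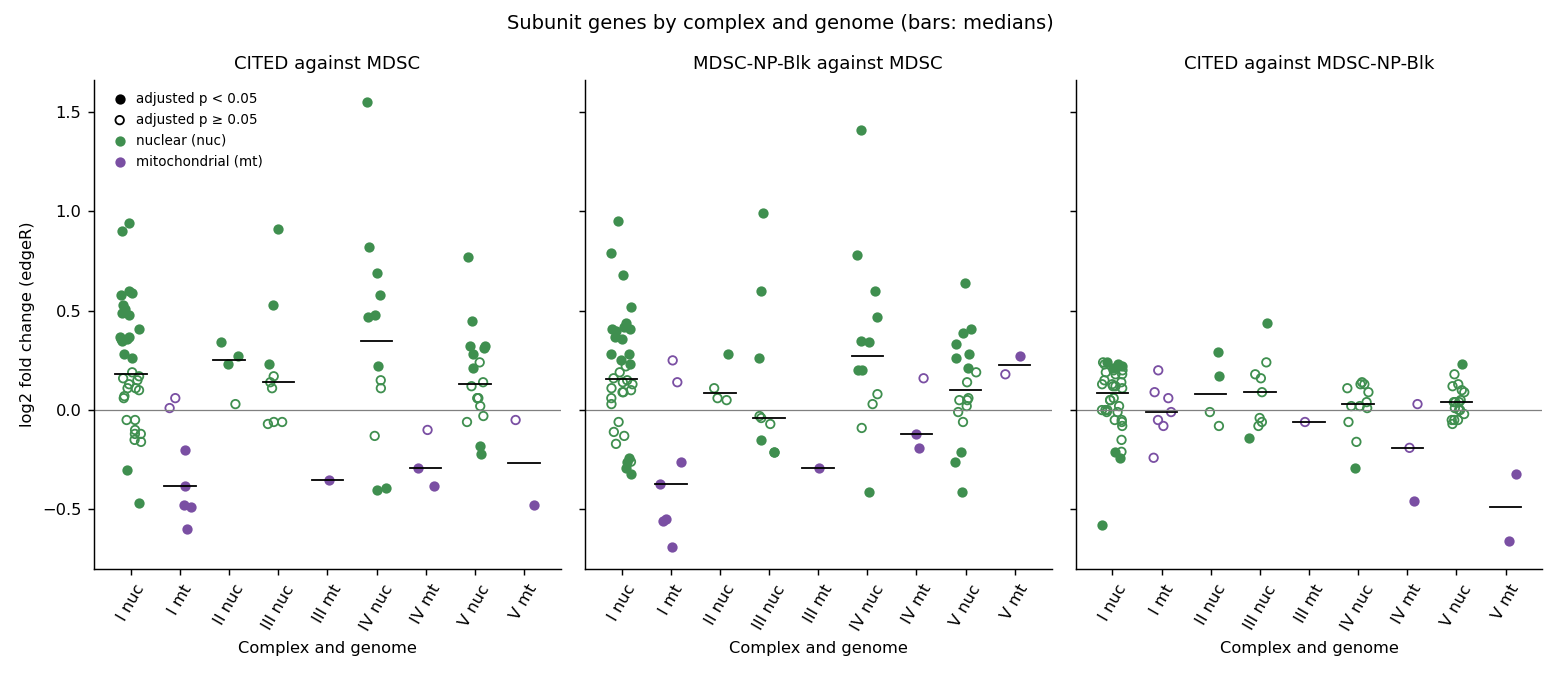
Log2 fold change (y axis) of each subunit gene with a mean normalized count above 50, by complex (x axis), in each comparison; green points are nuclear genes, purple points mitochondrial genes, filled points have an adjusted p below 0.05 in edgeR, and bars are medians. Most filled purple points lie below 0 and most filled green points above it in the comparisons with MDSC, and few points are filled between CITED and MDSC-NP-Blk.

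The direction of the nuclear set depended on the treatment of transcript length, whereas that of the mitochondrial set did not. In the comparisons with MDSC the correction lowered both medians. The mitochondrial median was already below 0, so its unchanged sign does not test whether it rests on length. With the length correction, 26 nuclear genes were higher and 26 lower in CITED against MDSC (median -0.01), and 19 were higher and 31 lower in MDSC-NP-Blk against MDSC (median -0.08). Of all 17676 symbols tested, the corrected fit called 4183 higher and 3555 lower in CITED, and 3544 higher and 3147 lower in MDSC-NP-Blk. Of the 38 nuclear genes that were higher in CITED, 25 were also higher after the correction and 0 were lower. Of the 34 in MDSC-NP-Blk, 18 were also higher and 2 were lower. The mitochondrial median was -0.56 in CITED and -0.45 in MDSC-NP-Blk after the correction, with 12 and 10 genes lower and 0 higher. Between CITED and MDSC-NP-Blk, the correction gave 15 nuclear genes higher and 6 lower (median 0.07) and 4 mitochondrial genes lower (median -0.05). Scaling by library totals alone moved the median of all genes to -0.32 for CITED against MDSC and -0.29 for MDSC-NP-Blk against MDSC. The nuclear medians were then -0.12 and -0.14, above those of all genes, and the mitochondrial medians -0.62 and -0.46, below them.

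**Figure D2:**
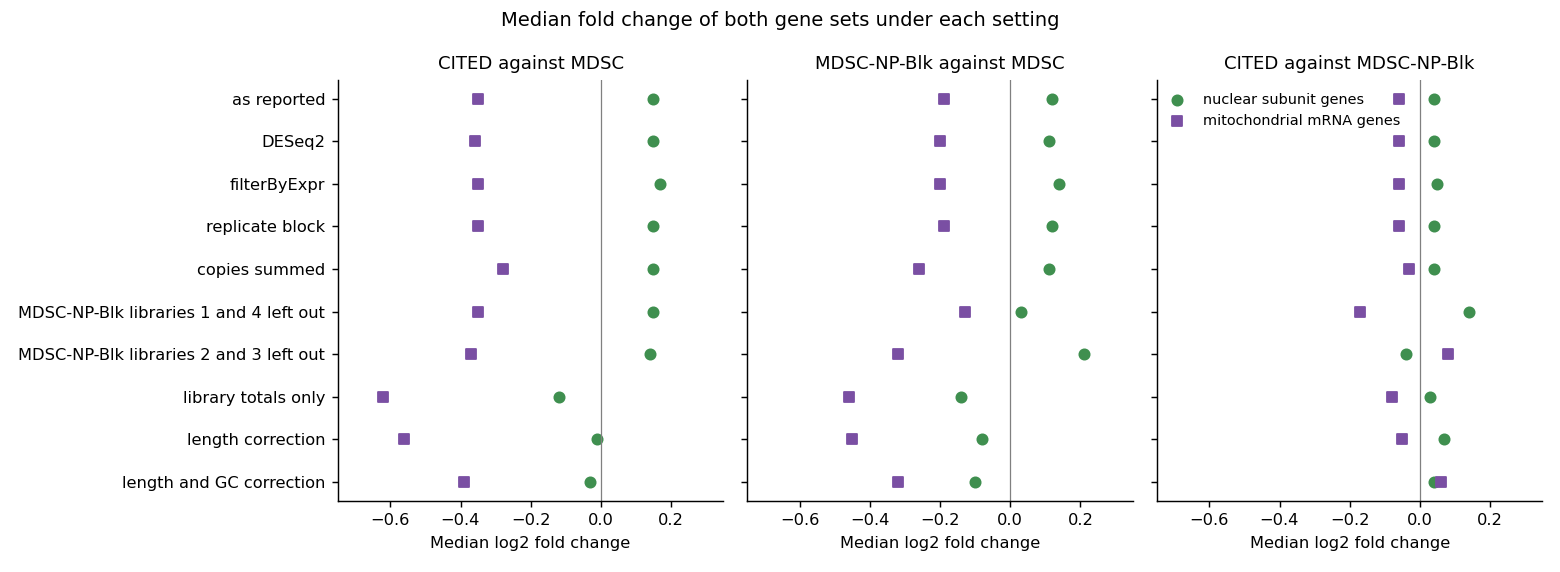
Median log2 fold change of the nuclear and mitochondrial sets in each comparison, under each setting named beside the axis. The mitochondrial median lies below 0 under every plotted setting in both comparisons with MDSC, and the nuclear median lies on either side of 0.

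As a share of all counts, the 13 mitochondrial genes made up 2.09%, 2.13%, 1.88%, and 2.01% of the MDSC libraries. They made up 1.56%, 1.68%, 1.60%, and 1.50% of the MDSC-NP-Blk libraries, and 1.48%, 1.40%, 1.45%, and 1.53% of the CITED libraries. The MDSC libraries were all above the others, and MDSC-NP-Blk and CITED overlapped. The means were 2.03% ± 0.111, 1.58% ± 0.0745, and 1.46% ± 0.0550 (SD, n = 4), respectively. The nuclear subunit genes held 0.690% ± 0.0162, 0.684% ± 0.0422, and 0.693% ± 0.0276 of counts (SD, n = 4), differences smaller than the spread within groups. Mitochondrial counts per nuclear member count were therefore 2.94 ± 0.142 for MDSC, 2.32 ± 0.227 for MDSC-NP-Blk, and 2.11 ± 0.122 for CITED (SD, n = 4).

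The complexes differed in this ratio. For complex IV it was 9.38 ± 0.476 for MDSC, 5.95 ± 0.599 for MDSC-NP-Blk, and 5.34 ± 0.326 for CITED. For complex I it was 1.98 ± 0.0992, 1.32 ± 0.242, and 1.32 ± 0.170, and for complex III, whose only mitochondrial subunit is cytochrome b, 1.87 ± 0.155, 1.28 ± 0.219, and 1.21 ± 0.117 (SD, n = 4 throughout). For complex V it was 0.911 ± 0.129, 1.05 ± 0.0540, and 0.83 ± 0.0904, so that this ratio was not lower in MDSC-NP-Blk than in MDSC. Ratios of raw counts depend on transcript length and on reads given to nuclear copies, which are described with the mitochondrial genes. The nuclear count of complex IV includes Cox7a2l, whose mean normalized count was 3851 for MDSC, 10239 for MDSC-NP-Blk, and 11272 for CITED.

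**Figure D3:**
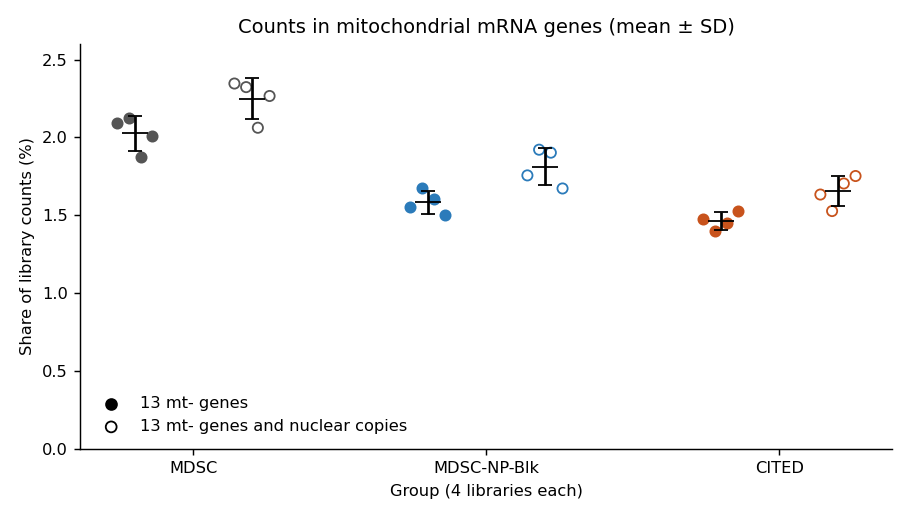
Percent of library counts (y axis) in the 13 mitochondrial mRNA genes (filled points) and in these genes with their nuclear copies (open points), by group (x axis), with the mean and SD of 4 libraries. All 4 MDSC libraries lie above the libraries of the other groups, for filled and for open points.

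Per kilobase of transcript, the 9 highest members in MDSC were all mitochondrial. The highest was mt-Co1 (chrM:5328-6872), which encodes the catalytic subunit of complex IV. Its mean was 122840 ± 7128 normalized counts per kilobase for MDSC, 112795 ± 5052 for MDSC-NP-Blk, and 114786 ± 10118 for CITED (SD, n = 4). The highest nuclear member in MDSC was Atp5f1b, the catalytic beta subunit of the ATP synthase, at 7445 ± 180 per kilobase. It was followed among nuclear members by Cox4i1 at 7242 ± 474, a difference within the spread between libraries, and by Cox8a at 6637 ± 272. In MDSC-NP-Blk and CITED, Cox4i1 stood above Atp5f1b, at 12451 ± 1207 and 12807 ± 602 against 6199 ± 258 and 6393 ± 206.

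Among the mitochondrial genes, the largest decreases against MDSC were those of complex I genes. The normalized count of mt-Nd2 (chrM:3914-4951), a membrane arm subunit, was 8201, 8571, 7297, and 8069 for MDSC, 5295, 5981, 5778, and 4881 for MDSC-NP-Blk, and 5227, 4515, 5643, and 5785 for CITED. Every MDSC library was above all others, and the nanoparticle groups overlapped. Its log2 fold change was -0.60 in CITED (SE 0.0656, edgeR adjusted p = 1.3e-09) and -0.55 in MDSC-NP-Blk (SE 0.0654, edgeR adjusted p = 1.4e-08) against MDSC, and -0.05 in CITED against MDSC-NP-Blk (edgeR adjusted p = 0.65).

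The neighbouring gene mt-Nd1 (chrM:2751-3707), another membrane arm subunit, shares no stretch of 31 bases (word) with any other annotated transcript. Its counts were 15490, 16378, 13666, and 15291 for MDSC, 10369, 10887, 10782, and 9083 for MDSC-NP-Blk, and 10565, 9330, 11499, and 12240 for CITED. As with mt-Nd2, all MDSC libraries were the highest. It was lower in CITED and MDSC-NP-Blk, at log2 fold changes of -0.48 and -0.56 (edgeR adjusted p = 1.2e-07 and 7e-09).

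Of the other complex I genes on the heavy strand, mt-Nd5 was lower, at -0.38 and -0.37 (edgeR adjusted p = 4.5e-05 and 9.6e-05), and mt-Nd4 at -0.20 and -0.26 (adjusted p = 0.014 and 0.0017), in CITED and MDSC-NP-Blk, respectively. For mt-Nd4l the values were -0.49 and -0.69 (adjusted p = 4.3e-04 and 4.6e-06). These are further membrane arm subunits of complex I. The libraries of mt-Nd4 overlapped between MDSC and both other groups, while those of mt-Nd5 and mt-Nd4l did not. None of the 7 mitochondrial complex I genes was called between CITED and MDSC-NP-Blk.

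mt-Nd6 (chrM:13552-14070), the only mRNA gene on the light strand, was not called. Its counts were 4100, 4020, 3388, and 3811 for MDSC, 4695, 4205, 4199, and 3811 for MDSC-NP-Blk, and 4508, 4398, 3379, and 3742 for CITED, and all groups overlapped. The log2 fold changes were 0.06 and 0.14 against MDSC (edgeR adjusted p = 0.50 and 0.12). With the length correction they were -0.24 and -0.19 (adjusted p = 7.3e-04 and 0.0072), so both direction and call changed. Of the counts in the 13 genes, mt-Nd6 held 0.867% ± 0.0242 for MDSC, 1.02% ± 0.0860 for MDSC-NP-Blk, and 1.04% ± 0.155 for CITED, and the 6 heavy-strand mt-Nd genes held 15.2% ± 0.386, 12.4% ± 0.970, and 13.6% ± 1.23 (SD, n = 4). The sources used here do not say whether reads were counted by strand.

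The complex III gene mt-Cytb (chrM:14145-15288) encodes cytochrome b, which carries the quinone-binding sites. Its counts were 29979, 30734, 26241, and 29967 for MDSC, 22134, 26427, 26233, and 21016 for MDSC-NP-Blk, and 23368, 20313, 23870, and 24137 for CITED. CITED lay below all MDSC libraries, and 1 MDSC-NP-Blk library lay within the MDSC range. The log2 fold change was -0.35 in CITED (edgeR adjusted p = 1.4e-05) and -0.29 in MDSC-NP-Blk (edgeR adjusted p = 2.9e-04).

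Complex IV genes differed among themselves. mt-Co1 was not called in CITED (-0.10, edgeR adjusted p = 0.11), and in MDSC-NP-Blk it was -0.12 (adjusted p = 0.043). Its log2 fold changes with the length correction were -0.28 and -0.29, both called. mt-Co2, which holds the site where cytochrome c delivers its electrons, was lower, at -0.38 in CITED and -0.19 in MDSC-NP-Blk (adjusted p = 3e-05 and 0.030), the latter call being lost in DESeq2 (adjusted p = 0.14). mt-Co3 (chrM:8607-9390), a core subunit without a metal centre, had counts of 37259, 43126, 38991, and 42919 for MDSC, 47162, 48126, 42898, and 43493 for MDSC-NP-Blk, and 42038, 34577, 26762, and 29174 for CITED. It was lower in CITED against both other groups, at -0.29 against MDSC and -0.46 against MDSC-NP-Blk (adjusted p = 0.0021 and 2.7e-05). With its nuclear copy summed in, the value against MDSC was -0.13 (adjusted p = 0.036), and the call against MDSC was lost in DESeq2 (adjusted p = 0.052). The CITED libraries lay below all MDSC-NP-Blk libraries but overlapped with MDSC.

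The complex V genes mt-Atp8 and mt-Atp6, which encode subunits of the membrane-embedded part of the ATP synthase, also separated the nanoparticle groups. mt-Atp8 (chrM:7766-7969) had counts of 1192, 1049, 1151, and 945 for MDSC, 1051, 1369, 1378, and 1106 for MDSC-NP-Blk, and 727, 828, 823, and 730 for CITED. All CITED libraries were below every other library. The log2 fold change was -0.48 against MDSC (edgeR adjusted p = 1.8e-05) and -0.66 against MDSC-NP-Blk (edgeR adjusted p = 3.2e-07), and 0.18 in MDSC-NP-Blk against MDSC (adjusted p = 0.099). The last value turned to -0.24 with the length correction and was then called (adjusted p = 0.045). mt-Atp6 had counts of 54784, 62995, 47273, and 42973 for MDSC, 63475, 66282, 59858, and 61097 for MDSC-NP-Blk, and 55433, 51331, 40659, and 53956 for CITED. It was higher in MDSC-NP-Blk than in MDSC by 0.27 (adjusted p = 0.0053), a call that was lost in DESeq2 and with the length correction (-0.03, adjusted p = 0.81), and lower in CITED than in MDSC-NP-Blk at -0.32 (adjusted p = 0.0024).

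**Figure D4:**
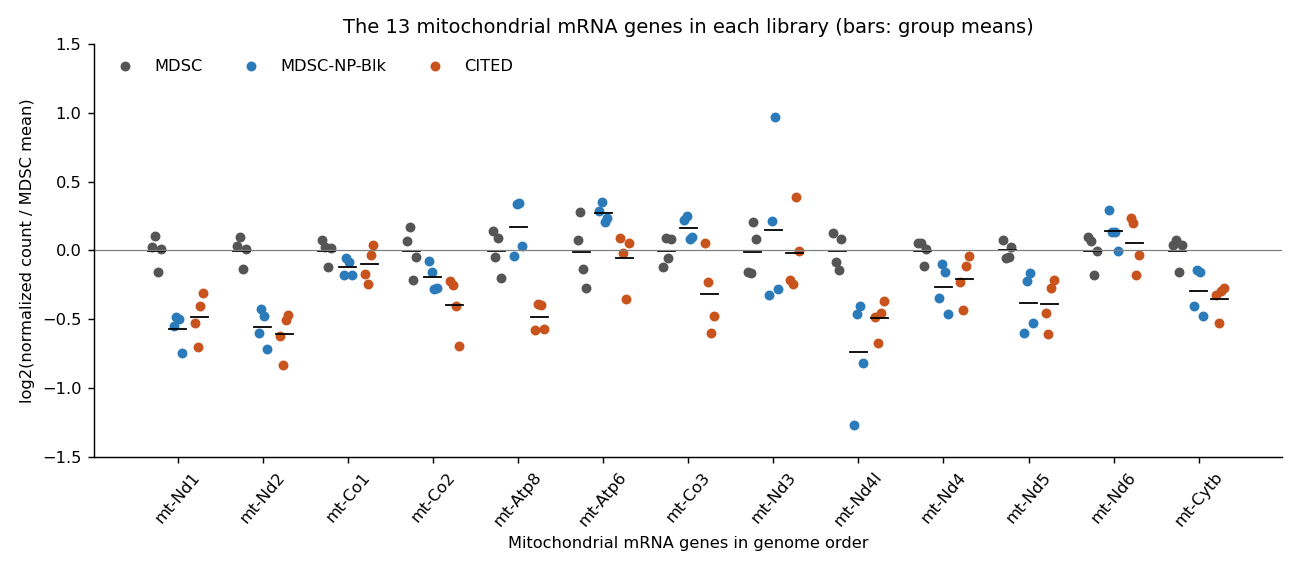
Normalized count of each of the 13 mitochondrial mRNA genes in each library, relative to the MDSC mean on the log2 scale, by group, in the order of the genes on the mitochondrial genome. CITED lies below MDSC-NP-Blk without overlap for mt-Atp8, mt-Atp6, and mt-Co3, and both nanoparticle groups lie below MDSC without overlap for mt-Nd1 and mt-Nd2.

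mt-Atp8, mt-Atp6, and mt-Co3 are neighbours on the mitochondrial genome and overlap each other. The sequence of the heavy-strand transcript where mt-Atp8 runs into mt-Atp6 (chrM:7912-7984, GRCm39) is shown because reads from it belong to both genes, with the 43 shared bases in capitals.
mt-Atp8/mt-Atp6: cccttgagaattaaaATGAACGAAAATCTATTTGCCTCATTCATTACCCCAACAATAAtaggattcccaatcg
The capitals begin with the start codon of mt-Atp6 and end with the stop codon of mt-Atp8. mt-Nd4l and mt-Nd4 share 7 bases in the same way (chrM:10167-10173), and mt-Atp6 and mt-Co3 share 1 base. How reads were divided between overlapping genes was not examined. Differences between such genes carry this limit, among them those of the short mt-Atp8 (204 bases) and mt-Nd4l (297 bases).

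The nuclear genome holds copies of mitochondrial genes, and reads cannot be told apart where the sequences are identical. A block of such copies lies on chromosome 1 (chr1:24650616-24655278, minus strand, GRCm39). In it, Atp6-ps was identical to mt-Atp6 over 678 of 678 bases, Gm28661 to mt-Co2 over 681 of 681, and Gm28437 to mt-Co3 over 783 of 783. The first 60 bases of mt-Nd3 and of its copy Gm28438 are shown because their only difference over 345 compared bases falls in them. It is T3C, counted from 1 at the start of mt-Nd3, with the base of mt-Nd3 first, and is in capitals.
mt-Nd3: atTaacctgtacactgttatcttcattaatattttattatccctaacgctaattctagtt
Gm28438: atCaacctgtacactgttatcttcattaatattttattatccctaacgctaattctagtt
The start of the copy of mt-Co1, Gm29216, is shown for contrast. It covers bases 1054 to 1545 of mt-Co1 and differed at 6 of 492 bases (T1056A, C1057T, A1059G, A1060G, C1062A, and A1066T), all in the stretch shown and in capitals.
mt-Co1: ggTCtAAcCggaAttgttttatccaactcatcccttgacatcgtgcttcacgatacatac
Gm29216: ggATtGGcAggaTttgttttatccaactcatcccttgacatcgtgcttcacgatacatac

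The authors' quantification divided reads between these genes and their copies, and the division varied between libraries. Of the summed counts of mt-Nd3 and its copy, between 50.7% and 82.3% were given to the copy in a library. For mt-Co3 the copy took 24.7% to 49.5%, for mt-Co2 6.56% to 37.6%, for mt-Atp6 4.54% to 32.6%, and for mt-Co1 2.47% to 7.31%. The copies of mt-Nd4 and mt-Nd4l, Gm28439 and Gm10222, received no counts although they were identical over 876 and 294 bases.

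With the copies summed into their genes, the mitochondrial medians were -0.28 for CITED against MDSC and -0.26 for MDSC-NP-Blk against MDSC. For mt-Nd3 the log2 fold change then went from 0.01 to -0.28 in CITED and from 0.25 to -0.29 in MDSC-NP-Blk (edgeR adjusted p = 0.0075 and 0.0081). mt-Co3 became higher in MDSC-NP-Blk (0.24, adjusted p = 1.5e-04) and remained lower in CITED than in MDSC-NP-Blk (-0.37, adjusted p = 3.9e-07), as did mt-Atp6 (-0.49, adjusted p = 5.7e-09). Between CITED and MDSC-NP-Blk, mt-Co2 went from -0.19 to -0.03. Summed with their copies, the 13 genes held 2.25% ± 0.129, 1.81% ± 0.119, and 1.65% ± 0.0980 of counts in MDSC, MDSC-NP-Blk, and CITED (SD, n = 4). Shared words were few in mt-Cytb (6.55%), mt-Nd6 (7.36%), and mt-Atp8 (7.47%), so that the values of these genes and of mt-Nd1 rest little on the division between genes and nuclear copies. For mt-Atp8 this does not cover the 43 bases that it shares with mt-Atp6.

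Among nuclear complex I genes, 17 of 36 were higher and 2 were lower in CITED against MDSC (median 0.18), and 15 were higher and 4 lower in MDSC-NP-Blk (median 0.16). The uncorrected counts of each complex stand beside 22.2% higher and 22.2% lower of all genes tested in CITED. In MDSC-NP-Blk these shares of all genes were 19.9% and 18.6%. After correction for length, 12 were higher and 10 lower in CITED (median 0.05), and 8 were higher and 10 lower in MDSC-NP-Blk (median -0.04). The largest increases were those of accessory subunits. Ndufa6 (chr15:82234340-82238523), an accessory subunit of the matrix arm, had counts of 1287, 1228, 1209, and 1097 for MDSC, 2537, 2232, 2084, and 2466 for MDSC-NP-Blk, and 2460, 2377, 2108, and 2332 for CITED. The MDSC libraries were all lower than the rest. It was higher by 0.94 in CITED and 0.95 in MDSC-NP-Blk (SE 0.0671 and 0.0670, edgeR adjusted p = 4.6e-14 and 8.6e-14), and by 0.65 and 0.63 with the length correction, and did not separate the nanoparticle groups (-0.01). The accessory subunit Ndufa2 was higher by 0.90 and 0.68, and Ndufb11, encoded on the X chromosome, by 0.58 and 0.79.

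Core subunits moved in both directions. Ndufs1 (chr1:63182058-63216236), the largest subunit with several iron-sulfur clusters, had counts of 1667, 1671, 1602, and 1596 for MDSC, 1171, 1321, 1442, and 1303 for MDSC-NP-Blk, and 1297, 1124, 1143, and 1164 for CITED. It was lower, at -0.47 in CITED and -0.32 in MDSC-NP-Blk (edgeR adjusted p = 3.8e-07 and 1.8e-04), without overlap with MDSC, and stood at -0.42 and -0.29 with the length correction. The core subunit gene Ndufs7 was higher, by 0.60 and 0.40, and stood at 0.35 and 0.12 with the length correction, the latter not called (adjusted p = 0.18). Ndufv1, which binds NADH, was higher in CITED (0.26, adjusted p = 0.0011, and 0.08 and not called with the length correction) but was not called in MDSC-NP-Blk (0.09, adjusted p = 0.32).

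Ndufv3, an accessory subunit of the NADH-oxidizing module, had the largest difference between the nanoparticle groups among nuclear members called. Its counts were 1875, 1815, 1808, and 1700 for MDSC, 2491, 1985, 1848, and 2439 for MDSC-NP-Blk, and 1475, 1393, 1441, and 1540 for CITED. All CITED libraries lay below all others. The log2 fold change was -0.58 against MDSC-NP-Blk (SE 0.0736, edgeR adjusted p = 1.4e-07) and -0.30 against MDSC (edgeR adjusted p = 9.1e-04). It was 0.28 in MDSC-NP-Blk against MDSC (adjusted p = 0.0019), where libraries 1 and 4 were the high ones and the groups overlapped, and 0.11 with the length correction (adjusted p = 0.16). Ndufv2, its partner in this module, was also lower in CITED than in MDSC-NP-Blk (-0.24, adjusted p = 0.014).

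The 4 genes of complex II, succinate dehydrogenase, have no mitochondrially encoded partner. Sdhb, the iron-sulfur subunit, had counts of 1136, 1111, 1231, and 1175 for MDSC, 1231, 1272, 1129, and 1171 for MDSC-NP-Blk, and 1632, 1396, 1403, and 1448 for CITED. CITED lay above both other groups, which overlapped each other. Sdhb was higher in CITED by 0.34 against MDSC and by 0.29 against MDSC-NP-Blk (edgeR adjusted p = 7e-05 and 0.0013), and 0.42 and 0.32 with the length correction. The membrane anchor Sdhc showed the same order (0.23 and 0.17, adjusted p = 0.0013 and 0.034). The other anchor gene, Sdhd, was higher in both nanoparticle groups (0.27 and 0.28, adjusted p = 3.6e-04 and 2.9e-04), although not with the length correction (0.06 and 0.07). The flavoprotein gene Sdha was not called in any comparison, with values between -0.08 and 0.11.

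In complex III, 3 of 9 nuclear genes were higher and 0 lower in CITED, and 3 were higher and 3 lower in MDSC-NP-Blk. The length correction gave 2 higher and 3 lower, and 3 higher and 5 lower, respectively. The hinge protein gene Uqcrh (chr4:115923314-115932296), whose product aids the transfer of electrons to cytochrome c, had counts of 2334, 2635, 2193, and 2045 for MDSC, 5025, 4284, 4111, and 4859 for MDSC-NP-Blk, and 4964, 4488, 3963, and 3920 for CITED. The MDSC libraries were all lower. It was higher by 0.91 in CITED and 0.99 in MDSC-NP-Blk (SE 0.0738 and 0.0737, edgeR adjusted p = 1.2e-12 and 3.3e-13), and shares 16.6% of its words with other transcripts. The Rieske iron-sulfur gene Uqcrfs1 was higher by 0.53 and 0.60, and Cyc1, the cytochrome c1 gene, was lower in MDSC-NP-Blk (-0.21, adjusted p = 0.0062) and not called in CITED (-0.06, and -0.24 and called with the length correction). Uqcrq, a small subunit, had counts of 1357, 1445, 1390, and 1115 for MDSC, 1261, 1118, 1082, and 1126 for MDSC-NP-Blk, and 1692, 1471, 1581, and 1469 for CITED. It was higher in CITED than in both others, by 0.44 against MDSC-NP-Blk (adjusted p = 2.5e-05) and 0.23 against MDSC (adjusted p = 0.012), the latter falling to 0.04 with the length correction.

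Complex IV held the largest change of any member called. In CITED, 7 of 17 nuclear genes were higher and 3 lower (median 0.11), and in MDSC-NP-Blk 8 were higher and 1 lower (median 0.08). After correction for length, 6 were higher and 6 lower in CITED (median -0.16), and 4 were higher and 7 lower in MDSC-NP-Blk (median -0.18), so that the sign of the median turned in both. Cox7a2l (chr17:83765970-83824759) encodes a protein described as a factor of supercomplexes of complexes III and IV, a role not examined in these C57BL/6 cells. Its counts were 4025, 3970, 3681, and 3727 for MDSC, 10863, 9936, 9383, and 10774 for MDSC-NP-Blk, and 12133, 11866, 10472, and 10616 for CITED. Every nanoparticle library was well above every MDSC library. The log2 fold change was 1.55 in CITED and 1.41 in MDSC-NP-Blk (SE 0.0563 and 0.0561, edgeR adjusted p = 1.1e-21 and 6.2e-20), a 2.93-fold and 2.66-fold difference. It was 1.34 and 1.20 with the length correction, and 0.14 in CITED against MDSC-NP-Blk (adjusted p = 0.068). Of its 31-base words, 58.3% occur in other annotated transcripts, chiefly in the long non-coding gene Gm61259, for which the table held no row.

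Cox4i1, the ubiquitous form of the largest nuclear subunit of complex IV, had counts of 5525, 6206, 5594, and 5357 for MDSC, 10761, 9457, 8580, and 10198 for MDSC-NP-Blk, and 10673, 10081, 9634, and 9725 for CITED. The MDSC libraries were again all lower. It was higher by 0.82 and 0.78 in CITED and MDSC-NP-Blk (edgeR adjusted p = 3.8e-14 and 3e-13) and shares no word with other transcripts. Its hypoxia- and lung-associated form Cox4i2 had means of 11.1 ± 6.83, 7.34 ± 3.38, and 6.16 ± 1.70 in MDSC, MDSC-NP-Blk, and CITED (SD, n = 4) and was not called. Cox8a was higher by 0.69 and 0.60, and by 0.40 and 0.27 with the length correction. Cox6a1 was higher by 0.47 and 0.34, and Cox6b1 by 0.48 and 0.35, but with the length correction both were called only in CITED (0.18 and 0.20), and stood at 0.01 and 0.04 in MDSC-NP-Blk. With length and GC content corrected together, Cox6a1 was at -0.01 in CITED and -0.10 in MDSC-NP-Blk.

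Tissue-restricted forms were low. The muscle forms Cox6a2 and Cox7a1 had group means at or under 23.3 and were not called, except that Cox7a1 was lower in MDSC-NP-Blk with the length correction (-1.79, adjusted p = 0.016). Cox6b2, the testis form of Cox6b1, was lower in CITED than in MDSC at -1.04 (SE 0.271, edgeR adjusted p = 0.0017), at means of 31.2 ± 3.00 against 64.2 ± 8.06 (SD, n = 4). In MDSC-NP-Blk its mean was 46.9 ± 12.8, and it was not called against MDSC (-0.46, adjusted p = 0.18), although it was with the length correction (-0.79, adjusted p = 0.014). Ndufa4l2 had group means at or under 4.85 and was not called. Cox7a2, the ubiquitous sister of Cox7a1 and Cox7a2l, was not called (-0.13 and 0.03), but was lower with the length correction (-0.39 and -0.24).

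Cox7b, on the X chromosome, was lower in both nanoparticle groups. Its counts were 1454, 1513, 1277, and 1348 for MDSC, 1029, 1054, 1051, and 1060 for MDSC-NP-Blk, and 1095, 1060, 998, and 1077 for CITED, with the MDSC libraries all higher. The log2 fold changes were -0.40 and -0.41 (edgeR adjusted p = 4.6e-06 and 3.9e-06). Ndufa4, named for complex I but found in complex IV, was lower in CITED at -0.39 against MDSC and -0.29 against MDSC-NP-Blk (adjusted p = 3.6e-05 and 0.0029), and was not called in MDSC-NP-Blk against MDSC (-0.09, and -0.42 and called with the length correction).

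**Figure D5:**
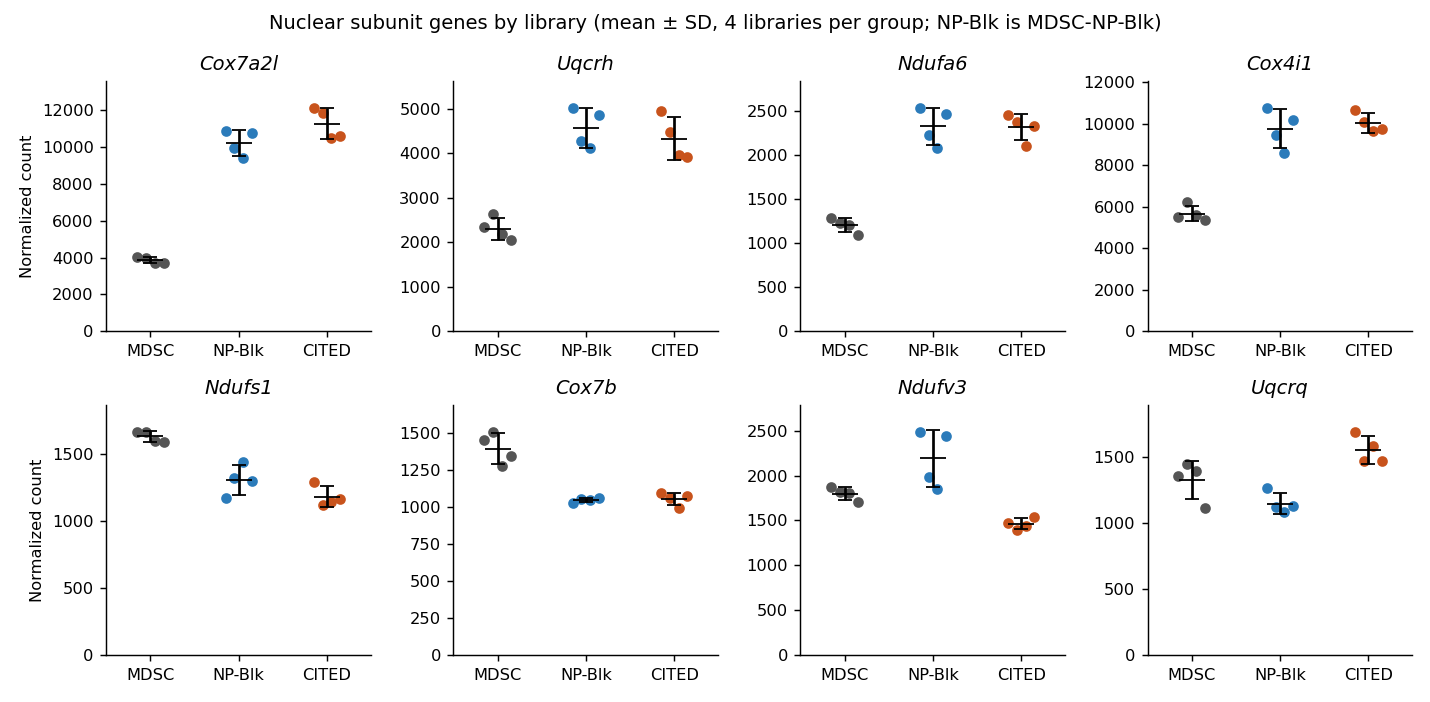
Normalized counts (y axis) of 8 nuclear subunit genes in each library (points), with the mean and SD of each group. Cox7a2l, Uqcrh, Ndufa6, and Cox4i1 are higher and Ndufs1 and Cox7b lower in both nanoparticle groups without overlap with MDSC, and Ndufv3 and Uqcrq separate CITED from MDSC-NP-Blk.

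In complex V, 8 of 18 nuclear genes were higher and 2 lower in CITED (median 0.13), and 7 were higher and 3 lower in MDSC-NP-Blk (median 0.10). The direction turned with the length correction, to 4 higher and 7 lower in CITED (median -0.05) and 4 higher and 9 lower in MDSC-NP-Blk (median -0.13). The delta subunit gene of the catalytic head, Atp5f1d, was higher by 0.77 and 0.64 (edgeR adjusted p = 2.7e-14 and 5.9e-12), from a mean of 2807 ± 40.5 in MDSC to 4801 ± 82.6 in CITED and 4381 ± 395 in MDSC-NP-Blk (SD, n = 4). The catalytic beta subunit gene Atp5f1b was lower, at -0.22 and -0.26 (adjusted p = 1e-04 and 9.5e-06), whereas the alpha subunit gene Atp5f1a was not called (-0.06 and -0.01; with the length correction it was lower in CITED, at -0.13). Atp5mg, a membrane subunit, was higher by 0.45 and 0.41 (adjusted p = 3.2e-07 and 2.5e-06), the latter call being lost with the length correction (0.08).

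The proton-carrying c-ring is encoded by Atp5mc1, Atp5mc2, and Atp5mc3, which yield the same mature protein. Atp5mc1 had counts of 1551, 1595, 1503, and 1418 for MDSC, 1187, 1122, 1077, and 1189 for MDSC-NP-Blk, and 1343, 1330, 1327, and 1373 for CITED. The 3 groups did not overlap, with CITED in between. The log2 fold change was -0.41 in MDSC-NP-Blk and -0.18 in CITED against MDSC (edgeR adjusted p = 1.8e-06 and 0.021), and 0.23 in CITED against MDSC-NP-Blk (adjusted p = 0.0059). Of the summed counts of Atp5mc2 and its copy Gm10175, 96.6% to 99.1% were given to the copy, so the count of Atp5mc2 itself says little about its mRNA. Summed with this copy, Atp5mc2 had means of 2426 ± 88.6 for MDSC, 3874 ± 351 for MDSC-NP-Blk, and 3755 ± 383 for CITED (SD, n = 4), and was higher by 0.63 in CITED and 0.67 in MDSC-NP-Blk (edgeR adjusted p = 2.2e-10 and 8.1e-11), and by 0.36 and 0.37 with the length correction added. Atp5mc3 was not called in MDSC-NP-Blk (0.05), but was lower there with the length correction (-0.20, adjusted p = 5.8e-04). Atp5if1, the inhibitor of the ATP synthase, was not called (0.12 and 0.14), but was lower with the length correction (-0.16 and -0.17, adjusted p = 0.012 and 0.011).

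Promoter sequence was read for 68 members in the RefSeq annotation of GRCm38.p6, from 250 bases before to 50 after the start. The core of the motif of NRF1, a regulator of respiratory genes (GCATGCGC or its reverse GCGCATGC), was in 10 of the 68 (14.7%), against 3.05% of 27025 genes. A gene with more than 1 annotated start was counted where any of its windows held the letters (73 windows for the 68 members). The YY1 core (AAGATGGC or GCCATCTT) was also in 10 (14.7%, against 3.19%), the core of ETS factors such as GABP (CCGGAAGT or ACTTCCGG) in 5 (7.35%, against 4.31%), and TATAAA or TTTATA in 7 (10.3%, against 15.7%). The 100 bases before the start are shown for the genes with the largest increases in complexes III, I, and IV, with the motif in capitals where one was found.
Uqcrh, chr4:116075071-116075170, minus strand: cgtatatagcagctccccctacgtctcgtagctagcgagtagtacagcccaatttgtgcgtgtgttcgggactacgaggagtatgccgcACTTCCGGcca
Ndufa6, chr15:82354292-82354391, minus strand: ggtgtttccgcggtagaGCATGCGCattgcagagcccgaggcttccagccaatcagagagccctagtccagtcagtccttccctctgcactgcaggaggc
Cox7a2l, chr17:83514334-83514433, minus strand: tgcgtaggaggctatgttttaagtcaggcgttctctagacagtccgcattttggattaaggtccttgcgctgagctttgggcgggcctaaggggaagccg
The ETS core lay 11 bases before the start of Uqcrh and the NRF1 core 83 bases before that of Ndufa6, and these letters were not in the window of Cox7a2l. A match of letters is a description of the sequence and was not tested as a site of binding.

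Genes that assemble the complexes were not all called in the direction of the subunits. Of 50 assembly factors tested, 18 were higher and 10 lower in CITED, and 17 were higher and 11 lower in MDSC-NP-Blk, against MDSC. In CITED these were 36% higher and 20% lower, beside 22.2% and 22.2% of all genes tested. In MDSC-NP-Blk they were 34% and 22%, beside 19.9% and 18.6%, so the shares lower were near those of all genes. After correction for length, the counts were 15 and 10, and 11 and 11. The 21 factors of complex IV accounted for 11 higher and 4 lower in CITED. Among them Surf1 was higher by 0.78 and 0.87, and the copper chaperone Cox17 by 0.79 and 0.44, in CITED and MDSC-NP-Blk (edgeR adjusted p at most 1.8e-04). Cox10, which makes the haem A precursor, was lower, at -0.66 and -0.76 (adjusted p = 3.1e-04 and 6.9e-05). Of 15 complex I factors, 4 were higher and 4 lower in CITED and 3 higher and 6 lower in MDSC-NP-Blk, with Ndufaf7 higher by 0.88 and 0.81 and Acad9 lower, at -0.33 and -0.53 (-0.13 and not called in CITED with the length correction).

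Of 30 genes of the machinery that keeps and expresses the mitochondrial genome, 1 was higher and 7 lower in CITED, and 1 was higher and 10 lower in MDSC-NP-Blk, against MDSC. The share lower was 23.3% in CITED, near the 22.2% of all genes tested, and 33.3% in MDSC-NP-Blk, beside 18.6%. The length correction left 1 higher and 7 lower, and 3 higher and 11 lower. Pnpt1, an RNA-degrading enzyme of mitochondria, was lower, at -1.07 and -0.95 (edgeR adjusted p = 7.7e-09 and 1.1e-07). Lrpprc, which stabilizes mitochondrial mRNAs, was lower, at -0.28 and -0.55 (adjusted p = 0.0032 and 6.5e-07), and was higher in CITED than in MDSC-NP-Blk by 0.27 (adjusted p = 0.015). The call in CITED was lost with the length correction (-0.16, adjusted p = 0.087). Polrmt, the mitochondrial RNA polymerase, was lower in MDSC-NP-Blk against MDSC (-0.47, adjusted p = 0.0018) and higher in CITED against MDSC-NP-Blk (0.38, adjusted p = 0.023).

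Of 9 nuclear regulators of respiratory genes, 3 were higher and 3 lower in each comparison with MDSC. Each count of 3 is 33.3% of the list, which has only 9 genes. Over all genes tested, the call rate for CITED was 22.2% each way. That for MDSC-NP-Blk was 19.9% upward and 18.6% downward. With the length correction, the regulator counts were 3 and 3 in CITED and 2 and 2 in MDSC-NP-Blk. Esrra, a nuclear receptor that activates respiratory genes, was higher by 0.63 in CITED and 0.26 in MDSC-NP-Blk (edgeR adjusted p = 2e-08 and 0.0075), and by 0.37 in CITED against MDSC-NP-Blk (adjusted p = 4.2e-04). The call in MDSC-NP-Blk was lost with the length correction (0.17, adjusted p = 0.093). Nrf1 was higher by 0.31 and 0.37, whereas Gabpa and Gabpb2, which encode subunits of GABP, were lower, at -0.34 and -0.69 in CITED and at -0.17 and -0.50 in MDSC-NP-Blk. Gabpb1, another subunit gene of GABP, was higher by 0.20 and 0.27, though not called with the length correction. For Gabpa the call in MDSC-NP-Blk was lost with that correction (-0.08).

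Upstream of the chain, 2 of 19 genes of pyruvate entry and the TCA cycle were higher and 9 lower in CITED, and 1 was higher and 9 lower in MDSC-NP-Blk. The share lower was 47.4% in both, beside 22.2% and 18.6% of all genes tested. Corrected for length, 2 were higher and 10 lower, and 1 higher and 9 lower. Idh3a, a subunit of the NAD-dependent isocitrate dehydrogenase, was lower, at -1.11 and -0.89 (edgeR adjusted p = 5.4e-12 and 1.1e-09). Suclg2, the GTP-forming subunit of succinyl-CoA ligase, was lower, at -1.41 in CITED and -0.50 in MDSC-NP-Blk, and the difference between those groups was called (-0.90, adjusted p = 3.2e-07). Mdh2 was higher in CITED by 0.34 against MDSC and 0.27 against MDSC-NP-Blk (adjusted p = 2.5e-07 and 5.2e-05).

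Of 19 genes for electron carriers and coenzyme Q, 3 were higher and 8 lower in CITED and 2 higher and 8 lower in MDSC-NP-Blk, and with the length correction 1 was higher and 10 lower in each. Uncorrected, 15.8% and 10.5% were higher, beside 22.2% and 19.9% of all genes tested. The share lower was 42.1% in both, beside 22.2% and 18.6%. Gpd2, which feeds electrons from glycerol 3-phosphate, was lower, at -0.58 and -0.44, and Dhodh, which feeds them from pyrimidine synthesis, at -0.95 and -1.04 (edgeR adjusted p at most 5.3e-05). Of 8 genes for the exchange of ATP, phosphate, and protons, 4 were higher and 1 lower in CITED and 5 higher and 0 lower in MDSC-NP-Blk. The shares higher were 50% and 62.5%, beside 22.2% and 19.9% of all genes tested, in a list of only 8 genes. Corrected for length, the counts were 3 and 2, and 3 and 1. The ADP/ATP carrier Slc25a4 was higher by 0.54 and 0.32, and the phosphate carrier Slc25a3 by 0.44 and 0.30. The outer membrane channel Vdac1 was lower in CITED than in MDSC-NP-Blk at -0.39 (adjusted p = 5e-06).

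The comparison of CITED with MDSC-NP-Blk rested partly on which MDSC-NP-Blk libraries were used. Without libraries 1 and 4, 31 nuclear genes were higher and 3 lower in CITED, with 7 mitochondrial genes lower and 0 higher. That fit called 1983 higher and 2155 lower of all 17461 symbols it tested. Without libraries 2 and 3, 2 nuclear genes were higher and 6 lower, and 3 mitochondrial genes were higher and 4 lower. There, 1665 were higher and 1794 lower of all 17388 symbols tested. Leaving out any 1 library gave between 3 and 21 nuclear genes higher, with 21 without MDSC-NP-Blk library 1, 4 without library 2 or library 3 of that group, and 3 without CITED library 1. It gave between 2 and 7 nuclear genes lower, with 3 without MDSC-NP-Blk library 4 and 2 without CITED library 3, and 1 mitochondrial gene was higher without MDSC-NP-Blk library 3. The nuclear median was -0.01 without CITED library 1. Between 3 and 4 mitochondrial genes were lower. In CITED against MDSC, leaving out any 1 library gave 35 to 41 nuclear genes higher and 8 to 10 mitochondrial genes lower. In MDSC-NP-Blk against MDSC, 6 nuclear genes were lower without MDSC library 2 and 7 without MDSC-NP-Blk library 2. There, 3 mitochondrial genes were higher without MDSC-NP-Blk library 1 or 4, and 2 without MDSC-NP-Blk library 3 or CITED library 1.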

How the data were processed

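Poly(A)-enriched RNA from 12 libraries, 4 per group, was sequenced as paired ends. The deposited counts, whole numbers for each symbol, were made by the authors with Salmon 1.4.0 against GENCODE transcripts of GRCm39 with decoys and summed with tximport in R 4.3.2, without normalization or a filter. The GENCODE release is not given in the sources used here. An entry with an empty symbol was left out (1 entry). Groups and library numbers came from the sample titles. The members, the other gene lists, and the tests were chosen with earlier results of these data known.

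Symbols that reached 2 counts in sum over all libraries (17676) were fitted in edgeR 4.0.16 (R 4.3.3; TMM factors, quasi-likelihood test, 12 libraries, group as the only term), with Benjamini-Hochberg adjustment at 0.05. The biological coefficient of variation was 9.03%. The length correction removed a loess curve (span 0.5) of expression on transcript length in each library. Shared sequence was the percent of a gene's 31-base words found in other transcripts. The GRCm39 annotation gave coordinates and lengths.

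The text names the 13 mitochondrial genes. Of the nuclear members it takes, per complex and comparison, the 2 genes called with the strongest increase and the 2 with the strongest decrease (mean above 50), members past a log2 fold change of 1, and tissue isoforms, and of each other list the called genes with the lowest p. It names a part of these. Ndufs7, Ndufv1, Sdha, Cox8a, Atp5f1a, Polrmt, and a few others were named for their role after their values were seen.

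Alternatives were DESeq2 1.42.0, other scalings and filters, the 8 libraries compared, a replicate block, corrections for length and GC, shared sequence left out, and each library left out. Summing copies into their genes, alone or with the length correction, and leaving out MDSC-NP-Blk libraries 1 and 4 or 2 and 3 were chosen after seeing the data. Scripts were tested on simulated data. Figures were plotted in matplotlib 3.10.9 (Python 3.11.15; pandas 2.3.3; numpy 2.4.6). Values of some genes of these lists are not reported here.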

Additional observations from a re-analysis of the deposited data

Results flagged for a closer look

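For a part of the 93 members above the limit of 50 and of the summed measures, the 4 values in each group were examined. Of these 138 groups of 4 values, 3 held a library that stood far from the other 3 by Dixon's criterion. Chance flags about 1 in 20 groups. The remaining members were not examined in this way. The normalized count of Ndufa1, an accessory subunit of complex I, was 691.4 in MDSC library 4 against 827 to 855 in the other MDSC libraries. The normalized count of mt-Cytb was 26241 in MDSC library 3 against 29967 to 30734. The ratio of mitochondrial to nuclear member counts was 2.725 in MDSC library 3 against 2.997 to 3.027. The cause was not tested.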

How the results depend on the processing

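The sign of the nuclear median depended on scaling, and the cause was not tested. With library totals only, the nuclear medians against MDSC were -0.12 (CITED; 19 higher, 28 lower) and -0.14 (MDSC-NP-Blk; 12 higher, 37 lower), with 5 higher between CITED and MDSC-NP-Blk, and the mitochondrial medians were -0.62 and -0.46, with 0 genes higher in MDSC-NP-Blk. With the length correction, 26 nuclear genes were lower in CITED (median -0.01), 19 were higher and 31 lower in MDSC-NP-Blk (median -0.08), and 15 were higher between the nanoparticle groups. The mitochondrial medians were -0.56 and -0.45, with 0 higher in MDSC-NP-Blk. With length and GC content together, 24 nuclear genes were higher and 26 lower in CITED (median -0.03), 19 and 29 in MDSC-NP-Blk (median -0.10), and 13 were higher in CITED against MDSC-NP-Blk. The mitochondrial median was -0.32 in MDSC-NP-Blk (0 higher) and 0.06 in CITED against MDSC-NP-Blk (1 higher).

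With copies summed and the length correction, the nuclear medians were 0.01 (26 lower) and -0.07 (19 higher, 32 lower), with 17 higher in CITED against MDSC-NP-Blk. The mitochondrial medians were -0.55 and -0.50, with 0 higher in MDSC-NP-Blk. With copies summed alone, 2 mitochondrial genes were higher in MDSC-NP-Blk and the share of counts was 2.249%, 1.813%, and 1.654% in MDSC, MDSC-NP-Blk, and CITED. As a share of all member counts the 13 genes held 74.57%, 69.81%, and 67.84%. Leaving out genes that share 10% or more of their words took out 9 of 13 mitochondrial and 29 of 88 nuclear members, so fewer genes were counted. Of the nuclear genes left, 24 and 22 were higher in CITED and MDSC-NP-Blk and 6 lower in MDSC-NP-Blk. Of the mitochondrial genes left, 3 and 2 were lower, 0 were higher in MDSC-NP-Blk (median -0.07), and 1 was lower in CITED against MDSC-NP-Blk.

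Without MDSC-NP-Blk libraries 1 and 4, the nuclear median was 0.03 in MDSC-NP-Blk and 0.14 in CITED against MDSC-NP-Blk (31 higher, 3 lower). The mitochondrial set had 3 genes higher in MDSC-NP-Blk and 7 lower in CITED against MDSC-NP-Blk (median -0.17). Without libraries 2 and 3, the nuclear medians were 0.21 (6 lower) and -0.04 (2 higher), and the mitochondrial medians -0.32 and 0.08 (3 higher). The count of mitochondrial genes higher in MDSC-NP-Blk was 0 with DESeq2 and 2 with only the 8 libraries compared.

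Correlations of same-numbered deviations from the group means ranged from -0.0563 to 0.141, and a library correlated best with its own number in 1, 0, and 2 of 4 cases. In CITED against MDSC-NP-Blk the mean was 0.0524 for same-numbered and -0.0170 for other pairs. Weak correlations cannot tell whether same-numbered libraries came from the same mice. With the replicate block, 3 mitochondrial genes were higher in MDSC-NP-Blk, and 39 nuclear genes were higher and 10 mitochondrial genes lower in CITED against MDSC.

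Leaving out 1 library in turn gave, in the order CITED and MDSC-NP-Blk against MDSC and then CITED against MDSC-NP-Blk, nuclear medians of 0.11 to 0.19, 0.07 to 0.19, and -0.01 to 0.08. Nuclear genes higher numbered 35 to 41, 30 to 38, and 3 to 21, and lower 6 to 8, 6 to 13, and 2 to 7. Mitochondrial genes higher numbered 0, 1 to 3, and 0 to 1, and lower 8 to 10, 6 to 8, and 3 to 4.

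Single genes changed sign as follows in CITED against MDSC. Atp5if1 was -0.16 with the length correction, also with copies summed, and -0.22 with length and GC. Cox6a1 was -0.01 with length and GC. With library totals only, Sdhc was -0.04, Sdhd -0.004, Uqcrc2 -0.16, Uqcrq -0.05, and mt-Nd6 -0.21. mt-Nd6 was -0.24 with the length correction, with and without copies summed, and mt-Nd3 was -0.28 with copies summed and -0.61 with the length correction added. In MDSC-NP-Blk against MDSC, Atp5if1 was -0.17 and -0.20, Cox7a2 -0.24 and -0.23, and Ndufa1 -0.11 and -0.10, with length and with length and GC. Ndufa1 was -0.12 with copies and length, and Cox6a1 -0.10 with length and GC. With totals only, Cox7a2 was -0.23, Ndufa1 -0.02, Sdhb -0.22, Sdhc -0.20, and Uqcrc2 -0.005. With the length correction, mt-Atp6 was -0.03, mt-Atp8 -0.24 (-0.28 with copies), and mt-Nd6 -0.19 (-0.20 with copies). mt-Nd3 was -0.29 with copies, -0.68 with copies and length, and -0.32 without MDSC-NP-Blk libraries 2 and 3. In CITED against MDSC-NP-Blk, mt-Nd5 was 0.18 without libraries 2 and 3.

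The table holds no mitochondrial ribosomal or transfer RNA, so a total without them equals the total used. With 4 libraries a group, values near the threshold moved across it, and tests of genes under a mean of 50 were imprecise.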
